A study of Arabidopsis thaliana with 12 samples.

Results

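The response of med8 seedlings of Arabidopsis thaliana to methyl viologen was measured by setting 3 RNA-seq libraries of med8 grown on 25 nM methyl viologen against 3 libraries of med8 grown on medium without it. These are 6 of the 12 libraries of the series. The other 6, of the Col-0 wild type on methyl viologen and on control medium, entered the fit and served to test where the med8 response differed from that of Col-0. All seedlings were 2 weeks old and grew at 21 °C under 16 h of light and 8 h of dark, and whole seedlings were the source of the RNA. The labels name the mutant only as med8, with no allele. Every locus of the count table belonged to the comparison: of 21543 loci, 20741 passed the filter on low counts and were tested.

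Methyl viologen (paraquat) takes electrons from photosystem I in the light and hands them to oxygen, which forms superoxide and then hydrogen peroxide. Plants answer such stress with detoxifying enzymes, antioxidants, mitochondrial bypass enzymes and stress transcription factors, and often with lower expression of photosynthesis genes. MED8 is a subunit of the head of Mediator, the complex that connects transcription factors with RNA polymerase II.

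The libraries held between 30.47 and 34.69 M counts. MED8 itself (AT2G03070) stood at 6.21, 5.46 and 4.85 CPM (counts scaled to library size) in med8 on methyl viologen and at 5.06, 5.23 and 6.41 CPM in med8 on control medium, so the groups overlapped. Its log2 fold change was −0.02 ± 0.12 (SE; edgeR adjusted p = 0.927). One library of each genotype stood apart from its group. In Col-0, control replicate 1 differed from the other controls by a chi-square per degree of freedom of 34.8 and 25.98. Between Col-0 control replicates 2 and 3 it was 8.89. In med8, control replicate 3 differed from the other controls by 34.35 and 37, against 6.33 between replicates 1 and 2. This med8 control replicate 3 also held the least root RNA. The 19 root tissue markers summed to between 166 and 213 CPM on methyl viologen and to 263, 276 and 84.3 CPM in the controls, 2 of them were called higher and 7 lower (1 and 11 without this library), and none was at 0 in any library. In bulk seedlings, fewer cells of a type and less RNA per cell cannot be told apart. The part of this library and of root content in the results was not tested. Where a count that a statement rests on moved by over 1.5 times without this library, its value without it follows in parentheses. Guard cell markers were lower in 3 of 5, with sums of 50.5 to 53.9 CPM on methyl viologen and 72.2 to 81.4 CPM in the controls. Of 5 vascular markers 1 was lower, with sums of 217 to 234 CPM on methyl viologen and 216 to 307 CPM in the controls. The 3 floral organ markers tested summed to under 2 CPM in every med8 library, and 1 was lower.

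Methyl viologen changed 8931 genes in med8, or 43.1% of 20741 (adjusted p under 0.05 by the quasi-likelihood test of edgeR). Higher on methyl viologen were 4528 genes (21.8%) and lower 4403 (21.2%). Counts of list members are to be read beside these 2 shares of all genes. The directions were close in number, but the larger changes were mostly rises. At least 2-fold higher were 1547 genes (7.46%), against 616 at least 2-fold lower (2.97%). At least 4-fold higher were 523 genes (2.52%), against 107 at least 4-fold lower (0.516%). At least 8-fold higher were 191 genes (0.921%), against 18 at least 8-fold lower (0.0868%). The median log2 fold change over all genes was 0.031 and the median size of a called change 0.595. In 8697 of the called genes the 3 methyl viologen libraries did not overlap the 3 controls. Over all genes tested, called or not, the treated libraries lay above the controls in 28.1% and below them in 25%. Separate libraries and a call rest on the same values, so the one adds no support to the other. Of genes with under 1 CPM in the higher med8 group 22.7% were called, against 64.3% of those with at least 100 CPM. The share called was thus greater at higher expression. Calls of at least 2-fold made up 20.8% of genes under 1 CPM and 15.4% of those with 1 to 10 CPM. They made up 6.44% at 10 to 100 CPM and 7.98% at 100 CPM or more. Below, "rose" and "fell" are used of genes that passed this test, a value with ± is a log2 fold change with its SE, and values per library are CPM in replicate order.

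**Figure D1:**
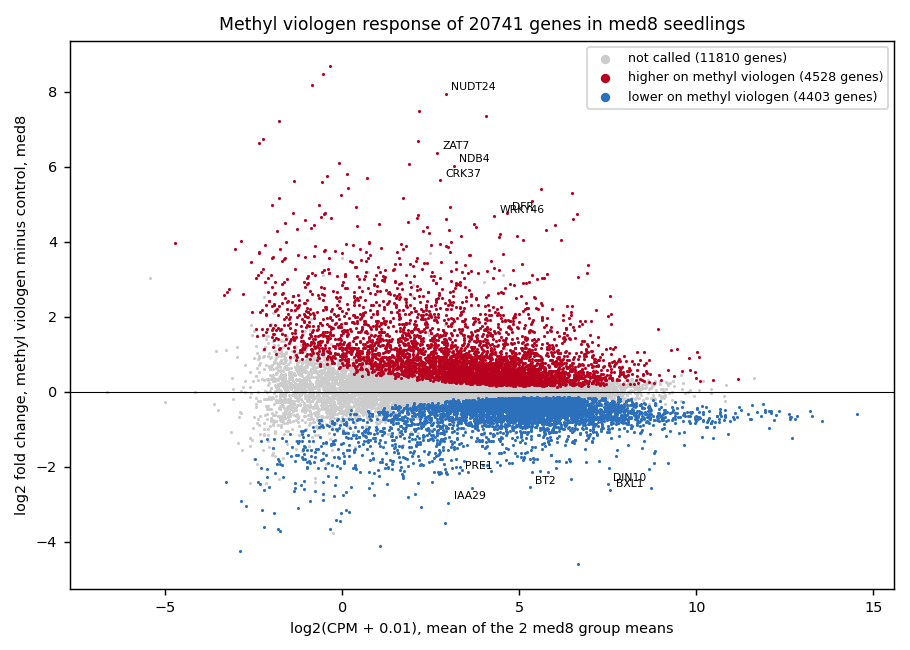
Each point is 1 of 20741 genes, placed by its mean level in med8 (x axis, log2 of CPM + 0.01) and its log2 fold change, methyl viologen minus control (y axis). Red genes rose (4528), blue genes fell (4403) and grey genes were not called; the 6 largest rises and 5 largest falls of the naming rule carry their symbols, and the rises reach farther from 0 than the falls.

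Genes with a RefSeq symbol that were called, averaged 10 CPM or more in their higher group and showed separate libraries were ranked by size. The separation of these genes, and of the falls ranked the same way, follows from this rule. DIC2, ICL and NUDT24 were among the 15 that rose most. DIC2 (AT4G24570), a dicarboxylate carrier of the mitochondrial inner membrane, held 120, 121 and 127 CPM on methyl viologen and 4.99, 5.23 and 6.87 CPM on control medium. The groups were far apart and each was tight, and DIC2 rose by 4.43 ± 0.26 (edgeR adjusted p = 8.71e-07). ICL (AT3G21720), the isocitrate lyase of the glyoxylate cycle, held 26, 21.3 and 28.6 CPM on methyl viologen, against 1.34, 1.18 and 0.855 CPM on control medium, and rose by 4.48 ± 0.35 (edgeR adjusted p = 4.56e-06). Both changes were larger in med8 than in Col-0, by 3.84 ± 0.36 for DIC2 and 2.05 ± 0.49 for ICL (interaction, edgeR adjusted p = 6.92e-05 and 0.0166). The ICL difference missed the threshold without Col-0 control replicate 2 (1.64, edgeR adjusted p = 0.0506). NUDT24 (AT5G19470), a Nudix hydrolase gene, had 5 counts in all 3 controls together and 15.7, 9.37 and 20.2 CPM on methyl viologen, so its size rests on very few control reads.

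Genes of the mitochondrial retrograde response, by which impaired mitochondria change nuclear transcription through membrane-bound NAC factors such as NAC017, rose almost throughout. Of 16 members 15 rose and NAC017 did not pass the test (0.06 log2), with a list median of 2.42 against 0.031 over all genes. The list is known for a promoter element, the mitochondrial dysfunction motif, searched here on both strands in the 250 bases before each RefSeq gene start (TAIR10.1). It was present in 4 of the 16 windows (25%) and in 303 of 20690 windows of all tested protein-coding genes (1.46%). Among the 15 genes that rose most in the ranking above, 0 of 15 windows held it. As the list is known for this element, its share beside that of all genes is not a test. The stretches that hold it are shown because 3 of the 4 belong to genes that rose and 1 to NAC017 itself; capitals mark the motif, and each is written 5′ to 3′ on the strand of its gene.

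AT2G04050 (chr2:1339577-1339718, minus strand, TAIR10.1): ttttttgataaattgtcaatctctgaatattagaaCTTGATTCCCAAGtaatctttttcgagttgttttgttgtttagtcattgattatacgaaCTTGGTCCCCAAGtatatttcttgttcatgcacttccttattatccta
AT2G21640 (chr2:9254292-9254374, plus strand, TAIR10.1): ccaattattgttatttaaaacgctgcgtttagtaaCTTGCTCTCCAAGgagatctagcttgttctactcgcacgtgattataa
AT5G51440 (chr5:20891018-20891100, plus strand, TAIR10.1): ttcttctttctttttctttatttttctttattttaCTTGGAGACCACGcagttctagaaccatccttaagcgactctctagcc
NAC017 (chr1:12451260-12451342, plus strand, TAIR10.1): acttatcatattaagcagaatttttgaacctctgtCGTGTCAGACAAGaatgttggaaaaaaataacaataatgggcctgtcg

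AT2G04050 holds the motif at 2 places, starting 215 and 156 bases before the gene start, and both read as the motif on either strand. The single copy of AT2G21640 also reads on either strand and starts 51 bases before the gene, that of AT5G51440 starts 110 bases before it on the gene's own strand, and that of NAC017 lies on the opposite strand. A match describes these letters only and says nothing of binding. In the same windows the W-box core TTGAC was present in 11 of the 16 retrograde genes (68.8%). It was present in 12 of the 15 genes that rose most in the ranking above (80%) and in 45.4% of all genes. The TGA factor core TGACG, which overlaps the W-box core where the letters run TTGACG, was present in 9 of 16 (56.2%), 6 of 15 (40%) and 19.2%. The G-box CACGTG was present in 1 of 16 (6.25%), 2 of 15 (13.3%) and 7.23%. As the 15 rises were chosen by size from these same data, these shares are not a test either.

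AT2G04050, which encodes a MATE efflux protein, held 179, 216 and 124 CPM on methyl viologen and 5.54, 3.78 and 3.95 CPM on control medium, and rose by 5.29 ± 0.24 (edgeR adjusted p = 2.41e-07). Its neighbour AT2G04070, another MATE gene, held 72.6, 131 and 80.7 CPM on methyl viologen and 2.55, 2.36 and 1.82 CPM on control medium (5.40 ± 0.31, edgeR adjusted p = 8.71e-07); the pair may share reads. In both genes replicate 2 was the highest methyl viologen library, and no treated library came near a control. AT2G21640, annotated as a marker of oxidative stress, held 28.8, 29.6 and 26 CPM on methyl viologen and 3.92, 4.83 and 5.81 CPM on control medium (2.53 ± 0.15, edgeR adjusted p = 8.71e-07). It is also one of 5 hallmark genes of reactive oxygen species, of which 3 rose; TI1 (0.23 ± 0.24) and AT1G05340 (−0.48 ± 0.30) did not pass (edgeR adjusted p = 0.47 and 0.219), although AT1G05340 fell without med8 control replicate 3 (−0.78, edgeR adjusted p = 0.0201). Without methyl viologen replicate 2, 1 of the 5 rose. OM66 (AT3G50930), an ATPase of the outer mitochondrial membrane, held 112, 177 and 118 CPM on methyl viologen and 9.02, 8.03 and 7.52 CPM on control medium (4.05 ± 0.43, edgeR adjusted p = 3.16e-05). Its rise exceeded that in Col-0 by 3.16 ± 0.57 (interaction, edgeR adjusted p = 0.00393), whereas UGT74E2, an auxin glucosyltransferase gene of the same list, differed by 0.25 ± 0.28 (interaction, edgeR adjusted p = 0.644).

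The enzymes that let electrons bypass the proton-pumping complexes of the mitochondrion rose in part. Among 11 alternative NAD(P)H dehydrogenase and oxidase genes 6 rose and 1 fell (median 0.60). NDB4 (AT2G20800), an external dehydrogenase, held 19, 19.9 and 13.5 CPM on methyl viologen and 0.138, 0.203 and 0.463 CPM on control medium, and rose by 6.02 ± 0.37 (edgeR adjusted p = 1.08e-06). NDB2 held 99.3, 108 and 92.6 CPM on methyl viologen and 24.3, 24.7 and 16.7 CPM on control medium (2.19 ± 0.20, edgeR adjusted p = 9.85e-06). The oxidase gene AOX1D held 15.1, 25.4 and 21.1 CPM on methyl viologen and 5.09, 4.46 and 2.89 CPM on control medium (2.31 ± 0.39, edgeR adjusted p = 0.000708). In these 3 genes every treated library lay above every control.

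**Figure D2:**
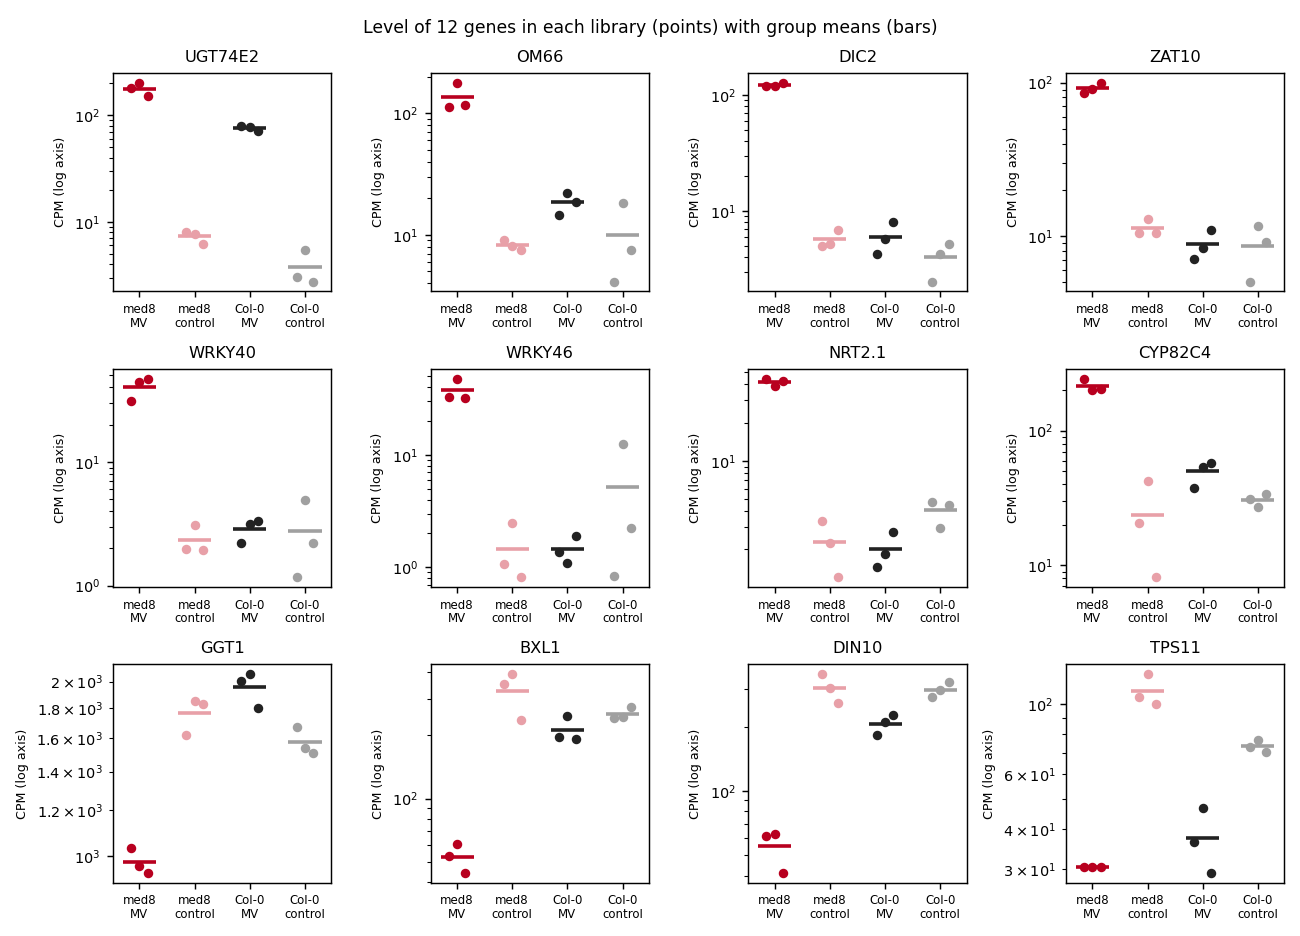
Level of 12 genes in each library (points, CPM on a log axis) with the mean of each group (bars), for med8 on methyl viologen (MV), med8 control, Col-0 on methyl viologen and Col-0 control. DIC2, ZAT10 and WRKY40 stand high only in the 3 med8 libraries on methyl viologen, UGT74E2 is high on methyl viologen in both genotypes, and GGT1, BXL1 and DIN10 are lowest in med8 on methyl viologen.

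Detoxification rose broadly. Glutathione S-transferases, which couple glutathione to foreign and oxidised compounds, had 19 members higher and 4 lower of 33 (median 0.57); without med8 control replicate 3 the lower ones numbered 9. GSTU24 held 146, 140 and 121 CPM on methyl viologen and 37.5, 32.2 and 13.4 CPM on control medium (2.29 ± 0.28, edgeR adjusted p = 8.14e-05), and the third control was the lowest of the 6 libraries. Of 18 other detoxification genes 14 rose (median 1.46). DOGT1, a glucosyltransferase gene, held 82, 109 and 75 CPM on methyl viologen and 10.9, 10.8 and 10.7 CPM on control medium (3.04 ± 0.16, edgeR adjusted p = 4.78e-07). ABCC3, a vacuolar pump for glutathione conjugates, held 281, 405 and 278 CPM on methyl viologen and 62, 54.7 and 48.3 CPM on control medium (2.55 ± 0.27, edgeR adjusted p = 2.87e-05). In both the controls were close to one another and the second treated library was highest.

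Sulfur assimilation supplies the cysteine from which glutathione is made, and 17 of its 21 genes rose and 1 fell (median 0.88). The members that rose most respond to sulfur shortage. SDI1 held 15.7, 9.73 and 8.89 CPM on methyl viologen and 2.41, 2.16 and 1.14 CPM on control medium (2.58 ± 0.31, edgeR adjusted p = 7.42e-05). GGCT2;1, which degrades glutathione in the cytosol, held 11.8, 10.1 and 9.81 CPM on methyl viologen and 2.37, 1.69 and 1.75 CPM on control medium (2.45 ± 0.18, edgeR adjusted p = 2.47e-06). LSU1 (2.31 ± 0.25) and LSU2 (1.96 ± 0.16) rose as well (edgeR adjusted p = 2.97e-05 and 4.06e-06). Enzymes that recycle ascorbate and glutathione had 5 higher and 4 lower of 15, against 21.8% and 21.2% of all genes. DHAR2, a dehydroascorbate reductase, held 57.8, 53 and 49.4 CPM on methyl viologen and 21.8, 21.4 and 17.8 CPM on control medium (1.39 ± 0.10, edgeR adjusted p = 2.7e-06), and the glutathione reductase gene GR1 rose by 0.74 ± 0.07 (edgeR adjusted p = 1.22e-05).

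Of 25 genes for enzymes that remove superoxide and peroxide 4 rose and 12 fell (median −0.26); without methyl viologen replicate 1 the risers numbered 2. GPX1, a chloroplast peroxidase of the glutathione peroxidase family, held 200, 208 and 225 CPM on methyl viologen and 532, 584 and 471 CPM on control medium, and fell by 1.33 on the log2 scale (SE 0.12, edgeR adjusted p = 1.14e-05). The 2-cysteine peroxiredoxin gene AT3G11630 held 524, 483 and 520 CPM on methyl viologen and 779, 796 and 947 CPM on control medium (−0.72 ± 0.09, edgeR adjusted p = 9.68e-05). NTRC, the reductase that recharges it, stood at −0.72 ± 0.14 (edgeR adjusted p = 0.00175), and the catalase gene CAT1 at −0.85 ± 0.11 (edgeR adjusted p = 0.000104). None of the treated libraries of these 4 genes overlapped a control.

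Of 14 enzyme genes of anthocyanin and flavonoid synthesis 13 rose (median 1.83). The acyltransferase gene 5MAT held 8.93, 5.57 and 9.44 CPM on methyl viologen and 0.344, 0.608 and 1.07 CPM on control medium (3.57 ± 0.32, edgeR adjusted p = 8.44e-06). GSTF12, which takes part in carrying anthocyanin to the vacuole, held 23, 17.1 and 26.8 CPM on methyl viologen and 1.45, 1.11 and 2.78 CPM on control medium (3.65 ± 0.29, edgeR adjusted p = 4.1e-06). In both genes replicate 2 was the lowest of the treated libraries and still lay above every control. The regulators went both ways, 6 higher and 4 lower of 14. The activator gene PAP1 held 11.5, 7.49 and 13 CPM on methyl viologen and 0.619, 0.776 and 0.748 CPM on control medium (3.90 ± 0.39, edgeR adjusted p = 2e-05). The repressor gene MYBL2 held 27, 24.5 and 25.7 CPM on methyl viologen and 105, 123 and 90.6 CPM on control medium (−2.04 ± 0.12, edgeR adjusted p = 8.12e-07), a larger fall than in Col-0 (interaction −1.33 ± 0.16, edgeR adjusted p = 0.000324). In the phenylpropanoid pathway, which feeds flavonoids and lignin, 5 of 17 rose and 2 fell (4 fell without med8 control replicate 3). PAL1, the entry enzyme, held 353, 320 and 303 CPM on methyl viologen and 186, 185 and 138 CPM on control medium (0.94 ± 0.11, edgeR adjusted p = 5.45e-05).

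Phosphate starvation genes rose in 13 of 21 cases and fell in 1 (2 fell without med8 control replicate 3), with a median of 0.87. PS2, a phosphatase gene, held 9.71, 8.74 and 8.74 CPM on methyl viologen and 0.964, 0.473 and 1.1 CPM on control medium (3.42 ± 0.39, edgeR adjusted p = 4.4e-05). Every treated library lay far above every control. MGDC, a galactolipid synthase gene, held 6.27, 5.27 and 6.1 CPM on methyl viologen and 1.45, 1.08 and 1.18 CPM on control medium, and its rise exceeded that in Col-0 by 1.84 (interaction, SE 0.28, edgeR adjusted p = 0.00124).

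Photosynthesis genes of the nucleus fell nearly without exception, by modest amounts. All 25 genes of photosystem I and its electron carriers fell (median −0.69, range −0.83 to −0.37), as did 25 of 26 of photosystem II and its antenna (median −0.61; 23 fell without med8 control replicate 3). FNR2, a ferredoxin reductase gene, held 921, 881 and 959 CPM on methyl viologen and 1570, 1593 and 1694 CPM on control medium (−0.81 ± 0.10, edgeR adjusted p = 5.29e-05). The photosystem II subunit gene PSBQA held 1024, 925 and 902 CPM on methyl viologen and 1518, 1590 and 1724 CPM on control medium (−0.76 ± 0.09, edgeR adjusted p = 6.76e-05). No treated library reached the lowest control in either gene. The 10 most abundant called genes with a symbol were antenna genes and the Rubisco small subunit gene RBCS1A, and all 10 fell; RBCS1A held 8833, 7380 and 6986 CPM on methyl viologen and 10768, 11693 and 13646 CPM on control medium (−0.64 ± 0.12, edgeR adjusted p = 0.00114). Antenna and Rubisco small subunit copies are near-identical and may share reads.

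Carbon fixation and photorespiration fell too, and here med8 parted from Col-0. All 17 Calvin cycle genes fell in med8 (median −0.66), against a median of −0.18 in Col-0, and 9 had a more negative response in med8 by the interaction test. All 11 photorespiration genes, which recover the carbon lost when Rubisco fixes oxygen, fell in med8 (median −0.76), against a median of −0.06 in Col-0, and 10 had a more negative response in med8. Over all genes 7.66% had such an interaction. PRK, the phosphoribulokinase gene, held 1036, 930 and 958 CPM on methyl viologen and 1657, 1780 and 1797 CPM on control medium (−0.84 ± 0.10, edgeR adjusted p = 5.98e-05; interaction −0.63 ± 0.14, edgeR adjusted p = 0.012). GGT1, the peroxisomal glutamate:glyoxylate aminotransferase gene, held 1033, 963 and 938 CPM on methyl viologen and 1622, 1849 and 1827 CPM on control medium (−0.85 ± 0.09, edgeR adjusted p = 2.27e-05). In Col-0 the same gene held 2005, 2060 and 1801 CPM on methyl viologen and 1673, 1536 and 1507 CPM on control medium, a change of 0.31 in the opposite direction (interaction −1.17 ± 0.12, edgeR adjusted p = 0.00013). PGLP1, the phosphoglycolate phosphatase gene of the first step, held 94.2, 91.1 and 104 CPM on methyl viologen and 169, 175 and 181 CPM on control medium (−0.86 ± 0.10, edgeR adjusted p = 4.53e-05; interaction −0.68 ± 0.14, edgeR adjusted p = 0.00775). In each of these genes the med8 treated libraries were the lowest of the 12 libraries.

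Chlorophyll synthesis fell in 12 of 16 genes (median −0.59), with 6 responses more negative and 4 more positive than in Col-0. GUN4, which helps magnesium chelatase, held 105, 91.8 and 87.1 CPM on methyl viologen and 147, 160 and 192 CPM on control medium (−0.81 ± 0.13, edgeR adjusted p = 0.000421; interaction −0.87 ± 0.18, edgeR adjusted p = 0.00855). CHLM, a methyltransferase of the same branch, stood at −0.76 ± 0.11 (edgeR adjusted p = 0.000203). Chlorophyll breakdown had 2 of 7 lower, against 21.2% of all genes. They were PAO (−0.39 ± 0.09, edgeR adjusted p = 0.00553) and RCCR (−0.50 ± 0.07, edgeR adjusted p = 0.00012), which act in sequence.

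**Figure D3:**
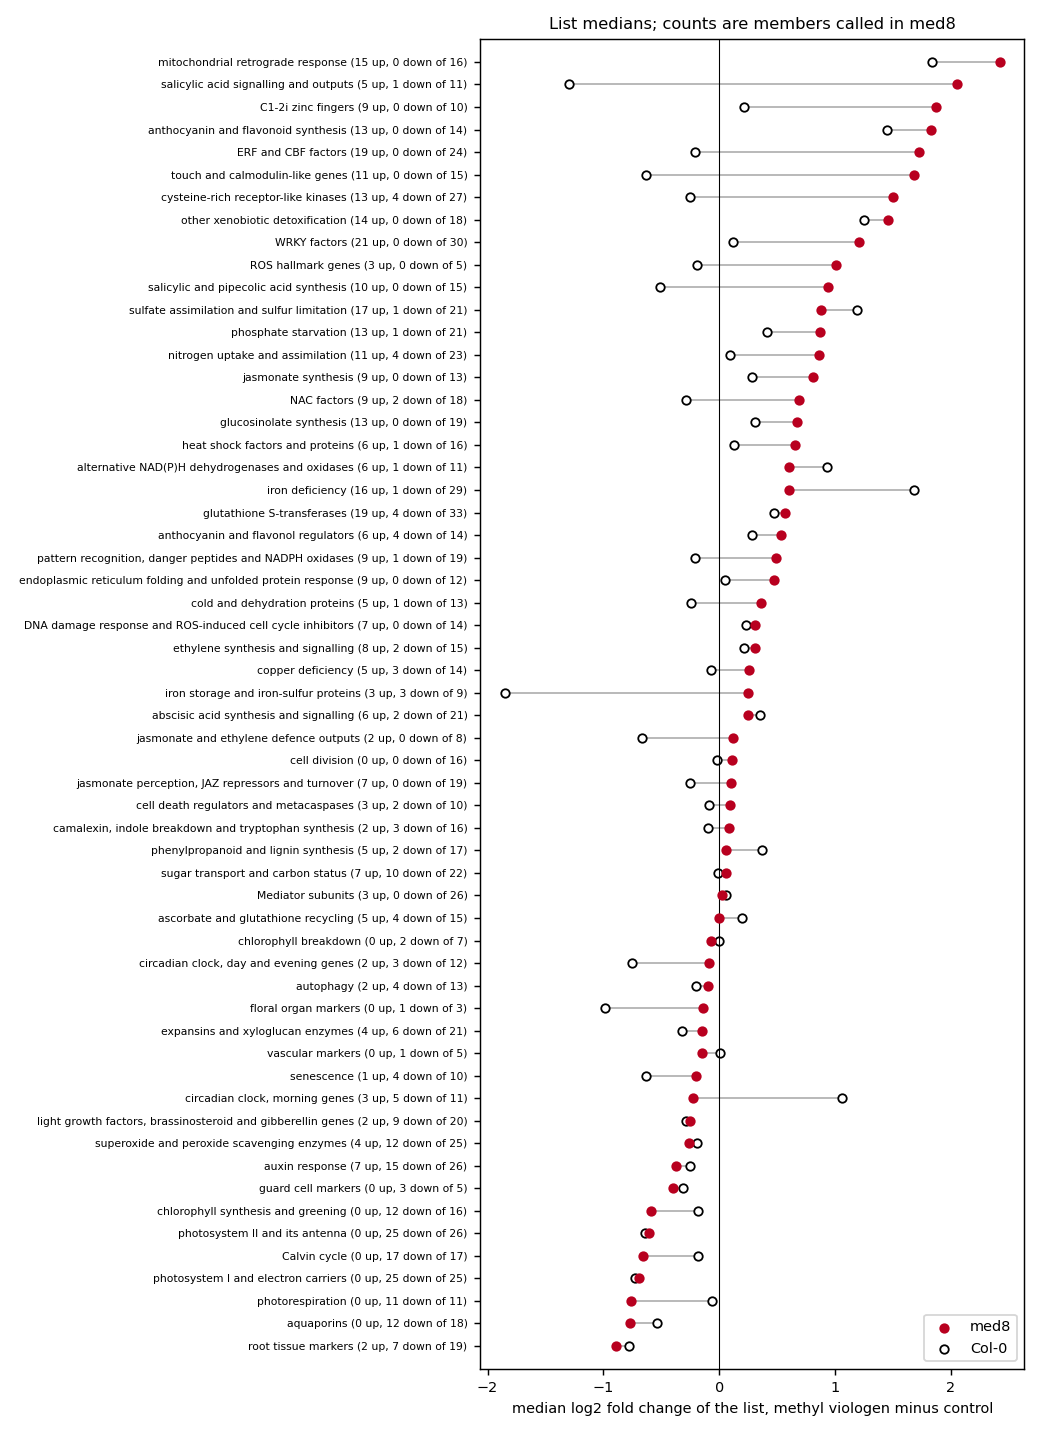
Median log2 fold change, methyl viologen minus control, of each gene list in med8 (filled) and in Col-0 (open), ordered by the med8 value from highest (mitochondrial retrograde response, 2.42) to lowest (root tissue markers, −0.89). The count of members called higher and lower in med8 follows each name, and the longest lines between the 2 genotypes belong to salicylic acid outputs, touch genes, iron storage, ERF factors and cysteine-rich kinases.

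Families of stress transcription factors held many called members. Of 10 C1-2i zinc fingers, repressors with an EAR motif, 9 rose (median 1.87), against a median of 0.21 in Col-0, and 8 rose more in med8 than in Col-0 (5 without Col-0 control replicate 2). Over all genes 6.25% had such an interaction. ZAT10 (AT1G27730) held 85.2, 90.5 and 99.2 CPM on methyl viologen and 10.5, 13 and 10.4 CPM on control medium (3.02 ± 0.25, edgeR adjusted p = 6.11e-06; interaction 2.99, SE 0.35, edgeR adjusted p = 0.000263). ZAT6 held 29.6, 32.8 and 36.2 CPM on methyl viologen and 10.2, 9.18 and 4.77 CPM on control medium (2.03 ± 0.26, edgeR adjusted p = 9.83e-05). ZAT7 held 12.3, 17.1 and 8.32 CPM on methyl viologen and 0.138, 0.27 and 0.0356 CPM on control medium, 13 control counts in all (6.36 ± 0.83, edgeR adjusted p = 0.000116). For each of them the treated libraries lay above all controls, and med8 control replicate 3 was the lowest.

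Of 30 WRKY factors, which bind the W-box, 21 rose (median 1.21), against a median of 0.12 in Col-0, and 10 rose more in med8. WRKY40 (AT1G80840) held 30.8, 44.2 and 47.1 CPM on methyl viologen and 1.96, 3.11 and 1.92 CPM on control medium (4.12 ± 0.40, edgeR adjusted p = 1.84e-05). In Col-0 its means were 2.89 CPM on methyl viologen and 2.76 CPM on control medium, and the interaction was 4.06 ± 0.57 (edgeR adjusted p = 0.000878). WRKY46 held 32.8, 47.5 and 32 CPM on methyl viologen and 1.07, 2.5 and 0.819 CPM on control medium (4.67 ± 0.78, edgeR adjusted p = 0.000625); its Col-0 controls were uneven, at 0.846, 12.4 and 2.24 CPM. Of 24 ERF and CBF factors 19 rose (median 1.72), against a median of −0.21 in Col-0, and 14 rose more in med8. ERF105 held 18.4, 18.7 and 26.1 CPM on methyl viologen and 2.2, 1.96 and 2.92 CPM on control medium (3.16 ± 0.24, edgeR adjusted p = 3.07e-06; interaction 3.21 ± 0.34, edgeR adjusted p = 0.000133). ERF11, a repressor of ethylene synthesis genes, held 12.4, 13.7 and 18.1 CPM on methyl viologen and 0.723, 1.32 and 0.997 CPM on control medium (3.86 ± 0.50, edgeR adjusted p = 0.000116). Treated and control libraries of both ERF genes did not overlap. Without med8 control replicate 3 the counts of risers were 9 zinc fingers, 20 WRKY and 19 ERF and CBF genes.

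NAC factors rose in 9 of 18 and fell in 2. NAC032 held 25.5, 25.8 and 25.1 CPM on methyl viologen and 6.71, 8.74 and 6.09 CPM on control medium (1.82 ± 0.12, edgeR adjusted p = 1.15e-06) and did not differ from Col-0 beyond the test (interaction 0.40 ± 0.16, edgeR adjusted p = 0.133). NAC090 rose from few control reads, with 8.84, 9.67 and 3.1 CPM on methyl viologen and 0.0344, 0.236 and 0.0356 CPM on control medium (6.07 ± 0.88, edgeR adjusted p = 0.000245). Replicate 3 was well below the other treated libraries.

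Salicylic acid is the hormone of defence against biotrophs, and pipecolic acid its partner in systemic resistance. Of 15 genes of their synthesis 10 rose (median 0.94), against a median of −0.51 in Col-0, and 10 responses were more positive in med8 (7 in each count without med8 control replicate 3). PBS3 (AT5G13320), which conjugates isochorismate to glutamate, held 78.2, 97.7 and 44 CPM on methyl viologen and 6.57, 14.7 and 3.88 CPM on control medium (3.12 ± 0.66, edgeR adjusted p = 0.00275; interaction 4.82 ± 0.94, edgeR adjusted p = 0.0059). Libraries of both groups varied more than 2-fold, yet the lowest treated one was above the highest control. Among 11 signalling and output genes 5 rose and 1 fell (median 2.05). Their sums in Col-0 were uneven too, with 164, 706 and 383 CPM in the controls and 118, 132 and 111 CPM on methyl viologen. PCC1 (AT3G22231), a pathogen and circadian controlled gene, held 130, 186 and 109 CPM on methyl viologen and 26.7, 39.1 and 36.6 CPM on control medium (2.05 ± 0.38, edgeR adjusted p = 0.00133), whereas in Col-0 it fell by 3.50 (interaction 5.56 ± 0.56, edgeR adjusted p = 0.000109). NIMIN-2, a partner of the receptor NPR1, held 7.74, 9.81 and 6 CPM on methyl viologen and 1.55, 2.3 and 1.42 CPM on control medium (2.16 ± 0.34, edgeR adjusted p = 0.000378; interaction 2.96 ± 0.48, edgeR adjusted p = 0.00185). LURP1 (AT2G14560), a gene of resistance to downy mildew, held 50.2, 90.2 and 45 CPM on methyl viologen and 4.58, 8.1 and 4.77 CPM on control medium (3.41 ± 0.79, edgeR adjusted p = 0.00491; interaction 6.24 ± 1.10, edgeR adjusted p = 0.0034). Within both groups replicate 2 was the highest library for each of these 4 genes. In Col-0 the controls were uneven, with 6.06, 106 and 49.9 CPM of LURP1, against 4.09, 8.85 and 9.93 CPM on methyl viologen. PR1, the usual marker gene, did not pass in med8 (2.55 ± 1.55, edgeR adjusted p = 0.209) and was named after its values were seen. It held 7.28, 10.6 and 2.19 CPM on methyl viologen and 0.241, 3.07 and 0.0356 CPM on control medium.

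Of 27 cysteine-rich receptor-like kinases 13 rose and 4 fell (median 1.5); without med8 control replicate 3, 7 rose and 6 fell. CRK36 (AT4G04490) held 20.1, 39.3 and 18.4 CPM on methyl viologen and 0.929, 1.76 and 1.03 CPM on control medium (4.38 ± 0.76, edgeR adjusted p = 0.000831; interaction 5.06 ± 1.04, edgeR adjusted p = 0.00823). Related kinase genes lie beside it on chromosome 4 and may share reads with it. Of 19 pattern receptors, danger peptides and NADPH oxidases 9 rose and 1 fell (4 fell without med8 control replicate 3). LYK5, a chitin receptor, held 11.7, 14.8 and 15.6 CPM on methyl viologen and 3.37, 4.39 and 3.63 CPM on control medium (1.89 ± 0.22, edgeR adjusted p = 5.46e-05; interaction 2.17 ± 0.31, edgeR adjusted p = 0.000955). RBOHD, the main superoxide-forming oxidase of the plasma membrane, held 136, 134 and 140 CPM on methyl viologen and 55.3, 54.4 and 43.9 CPM on control medium (1.42 ± 0.15, edgeR adjusted p = 2.27e-05). Its treated libraries were nearly equal. Of 15 touch and calmodulin-like genes 11 rose (median 1.68), against a median of −0.63 in Col-0, and 11 responses were more positive in med8 (7 without Col-0 methyl viologen replicate 1). CML37 held 11.6, 13 and 6.42 CPM on methyl viologen and 0.619, 0.911 and 0.107 CPM on control medium (4.22 ± 0.62, edgeR adjusted p = 0.000267; interaction 5.71 ± 0.93, edgeR adjusted p = 0.00214). Among 10 cell death regulators 3 rose and 2 fell (4 fell without med8 control replicate 3), against 21.8% and 21.2% of all genes. BAP1, a copine partner that restrains cell death, held 5.43, 7.35 and 5.87 CPM on methyl viologen and 1.38, 1.59 and 0.784 CPM on control medium (2.31 ± 0.28, edgeR adjusted p = 6.86e-05). Its interaction was 3.21 ± 0.41 (edgeR adjusted p = 0.000431).

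**Figure D4:**
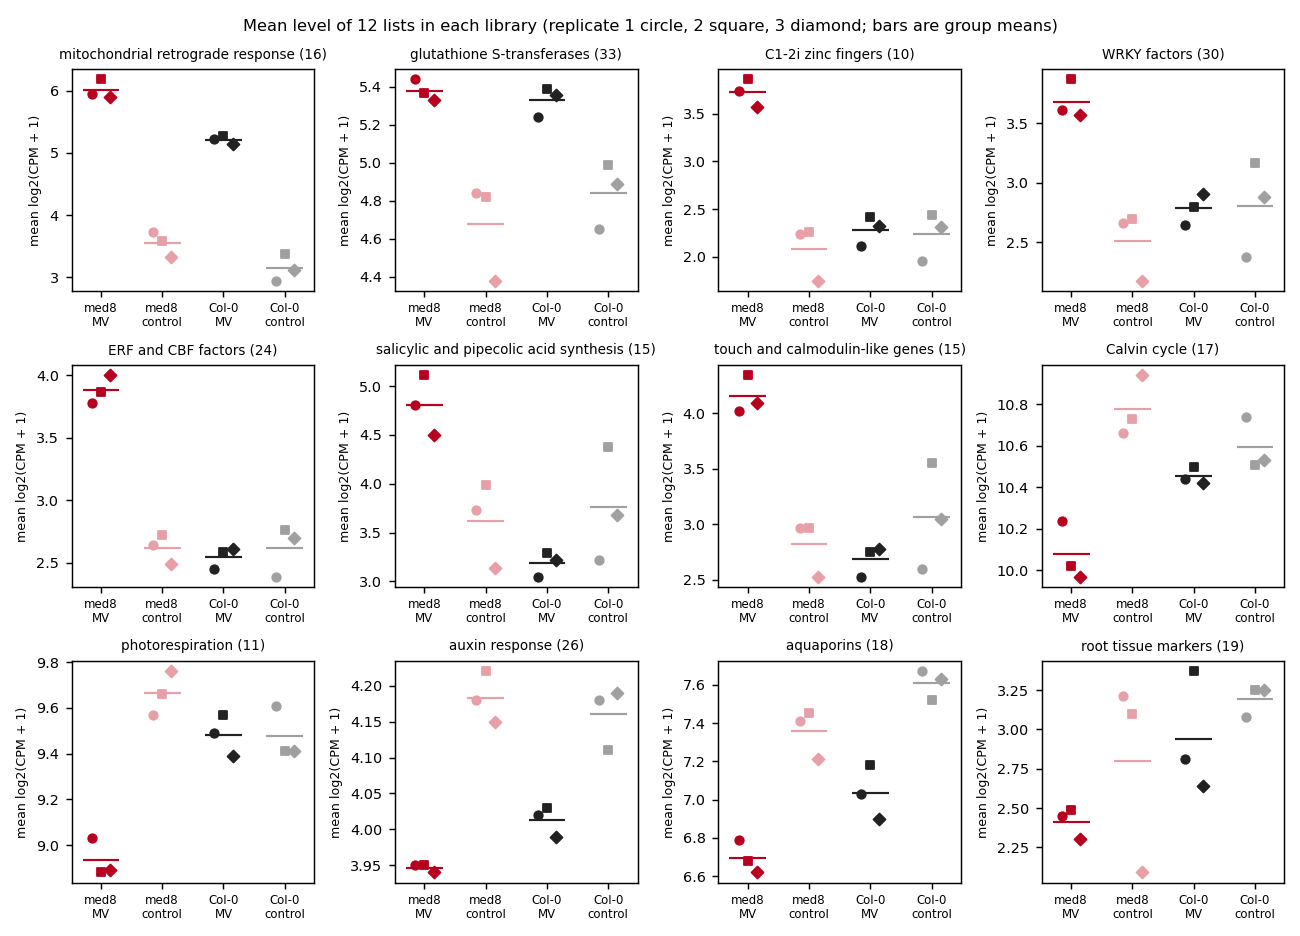
Mean log2(CPM + 1) of 12 lists in each library of med8 on methyl viologen (MV), med8 control, Col-0 on methyl viologen and Col-0 control; circles, squares and diamonds are replicates 1, 2 and 3, bars are group means and the number of genes stands in each title. The med8 libraries on methyl viologen are the highest of all 12 for zinc fingers, WRKY, ERF and touch genes and the lowest for Calvin cycle, photorespiration and auxin genes, and med8 control replicate 3 is the lowest med8 library for the root markers.

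Jasmonate synthesis rose in 9 of 13 genes (median 0.81). LOX4, a plastid lipoxygenase gene of the first step, held 27.6, 30.3 and 31.5 CPM on methyl viologen and 4.68, 6.31 and 4.06 CPM on control medium (2.57 ± 0.42, edgeR adjusted p = 0.000532; interaction 2.59 ± 0.58, edgeR adjusted p = 0.0126). LOX2, another, held 800, 636 and 747 CPM on methyl viologen and 208, 220 and 262 CPM on control medium (1.66 ± 0.31, edgeR adjusted p = 0.0014). Neither gene's groups overlapped. Of 19 genes of jasmonate perception, repression and turnover 7 rose, and of 8 output genes 2 rose, a share near the 21.8% of all genes. Without med8 control replicate 3, 1 output gene rose and 1 fell, with a median of −0.26 against 0.12. VSP2, an output gene, held 103, 73.3 and 94.5 CPM on methyl viologen and 42.2, 56.4 and 45.5 CPM on control medium (0.91 ± 0.19, edgeR adjusted p = 0.00291).

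Ethylene genes rose in 8 of 15 and fell in 2 (5 rose without med8 control replicate 2). ACS6, a synthase of the ethylene precursor, held 55, 58.8 and 67.4 CPM on methyl viologen and 11.6, 12.1 and 11.8 CPM on control medium (2.35 ± 0.15, edgeR adjusted p = 1.14e-06; interaction 1.91 ± 0.20, edgeR adjusted p = 0.000133). Abscisic acid genes had 6 higher and 2 lower of 21, against 21.8% and 21.2% of all genes. CYP707A3, a hydroxylase gene of abscisic acid breakdown, held 13.5, 15.7 and 21.1 CPM on methyl viologen and 2.06, 1.82 and 1.35 CPM on control medium (3.26 ± 0.23, edgeR adjusted p = 1.87e-06; interaction 3.34 ± 0.32, edgeR adjusted p = 6.9e-05). CYP707A1 rose by 2.40 ± 0.17 (edgeR adjusted p = 1.96e-06). Cold and dehydration proteins had 5 higher and 1 lower of 13 (2 lower without med8 control replicate 3). COR15B held 276, 267 and 329 CPM on methyl viologen and 128, 202 and 163 CPM on control medium (0.82 ± 0.17, edgeR adjusted p = 0.00273), while in Col-0 it fell by 1.80 (interaction 2.62 ± 0.25, edgeR adjusted p = 6.92e-05).

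Protein folding genes of the endoplasmic reticulum rose in 9 of 12 (median 0.47). BZIP60, a factor of the unfolded protein response, held 54.9, 64.6 and 56.5 CPM on methyl viologen and 28.1, 27 and 20.4 CPM on control medium (1.22 ± 0.14, edgeR adjusted p = 4.28e-05). The chaperone gene BIP2 held 264, 271 and 242 CPM on methyl viologen and 139, 136 and 167 CPM on control medium (0.81 ± 0.16, edgeR adjusted p = 0.0017). Both pairs of groups were separate. Heat shock genes had 6 higher and 1 lower of 16. HSFA4A, a heat shock factor, held 30.9, 45.5 and 45 CPM on methyl viologen and 13.6, 14.7 and 9.3 CPM on control medium (1.69 ± 0.20, edgeR adjusted p = 6.67e-05), and HSFA7A held 2.54, 2.08 and 2.27 CPM on methyl viologen and 7.09, 5.57 and 3.81 CPM on control medium (−1.26 ± 0.20, edgeR adjusted p = 0.000455). Glucosinolate synthesis, which makes the sulfur-rich defence compounds of the cabbage family, rose in 13 of 19 genes (median 0.67). CYP79B3, of the indole branch, held 79.2, 74.8 and 78.9 CPM on methyl viologen and 28, 26.9 and 39.5 CPM on control medium (1.30 ± 0.20, edgeR adjusted p = 0.00036). In the list of camalexin, indole breakdown and tryptophan genes 2 of 16 rose and 3 fell, against 21.8% and 21.2% of all genes. Without med8 control replicate 3, 1 rose and 5 fell, and the falls numbered 1 without methyl viologen replicate 1 or 2 or med8 control replicate 1 or 2. IGMT1, which methylates indole glucosinolates, held 21.5, 23.6 and 23.6 CPM on methyl viologen and 88.2, 70.4 and 31.4 CPM on control medium (−1.47 ± 0.29, edgeR adjusted p = 0.00186).

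Of 23 genes of nitrogen uptake and assimilation 11 rose and 4 fell (median 0.86), with 9 responses more positive and 5 more negative than in Col-0. NRT2.1 (AT1G08090), the high-affinity nitrate transporter of roots, held 44.3, 38.7 and 42.1 CPM on methyl viologen and 3.37, 2.26 and 1.21 CPM on control medium, and rose 18.2-fold (4.19 ± 0.30, edgeR adjusted p = 3.07e-06). In Col-0 it held 1.46, 1.83 and 2.76 CPM on methyl viologen and 4.72, 2.97 and 4.48 CPM on control medium, a fall of 1.01, and the interaction was 5.20 ± 0.43 (edgeR adjusted p = 3.55e-05). Of the root markers, 2 rose and 7 fell (1 and 11 without med8 control replicate 3). ASN2, an asparagine synthetase gene, held 94.6, 92.3 and 90.2 CPM on methyl viologen and 194, 186 and 202 CPM on control medium (−1.07 ± 0.09, edgeR adjusted p = 5.44e-06), and in Col-0 it rose by 0.68 (interaction −1.75 ± 0.12, edgeR adjusted p = 1.39e-05).

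Some genes of carbon use fell more than 4-fold. DIN10 (AT5G20250), a dark-inducible gene of the raffinose synthase family, held 61.4, 62.7 and 41.3 CPM on methyl viologen and 352, 304 and 257 CPM on control medium (−2.47 ± 0.17, edgeR adjusted p = 1.8e-06; interaction −1.94 ± 0.23, edgeR adjusted p = 0.000247). BXL1 (AT5G49360), a wall xylosidase gene, held 52.9, 60.9 and 44.3 CPM on methyl viologen and 353, 392 and 236 CPM on control medium (−2.63 ± 0.19, edgeR adjusted p = 2.49e-06; interaction −2.37 ± 0.25, edgeR adjusted p = 0.000137). BGAL1, a galactosidase gene, held 160, 154 and 149 CPM on methyl viologen and 681, 720 and 552 CPM on control medium (−2.07 ± 0.10, edgeR adjusted p = 2.27e-07; interaction −1.04 ± 0.13, edgeR adjusted p = 0.000373). In all 3 the treated libraries were the lowest of the 12. BT2, a BTB and TAZ domain scaffold gene, held 9.97, 11.7 and 12.5 CPM on methyl viologen and 77.9, 71 and 52 CPM on control medium (−2.55 ± 0.15, edgeR adjusted p = 9.52e-07; interaction −2.07 ± 0.21, edgeR adjusted p = 8.95e-05). Of 22 genes of sugar transport and carbon status 7 rose and 10 fell. TPS11, of the class of trehalose phosphate synthases that respond to sugar, held 30.4 CPM in each treated library and 105, 124 and 99.5 CPM on control medium (−1.85 ± 0.14, edgeR adjusted p = 3.47e-06). On the rising side, SUS3, a sucrose synthase gene, held 26.1, 25.5 and 28 CPM on methyl viologen and 6.81, 7.49 and 4.63 CPM on control medium (2.07 ± 0.17, edgeR adjusted p = 6.11e-06). GPT2, a glucose phosphate translocator of plastids, held 13.3, 17.6 and 12.9 CPM on methyl viologen and 0.585, 0.776 and 0.427 CPM on control medium (4.60 ± 0.91, edgeR adjusted p = 0.00189). Of 10 senescence genes 1 rose and 4 fell, SEN1 by 1.85 (SE 0.28, edgeR adjusted p = 0.000321). Of 13 autophagy genes 2 rose and 4 fell (1 and 7 without med8 control replicate 3), against 21.8% and 21.2% of all genes. ATG8E stood at −0.81 ± 0.15 (edgeR adjusted p = 0.00133).

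Of 26 auxin response genes 15 fell and 7 rose (median −0.37). SAUR20, one of the small auxin-up RNAs, which are short-lived transcripts of elongating tissue, held 4.57, 3.72 and 3.55 CPM on methyl viologen and 16.8, 16.4 and 14.6 CPM on control medium (−2.01 ± 0.18, edgeR adjusted p = 7.66e-06; interaction −1.56 ± 0.24, edgeR adjusted p = 0.00148). SAUR63 held 2.2, 2.43 and 2.56 CPM on methyl viologen and 12.3, 11.6 and 7.77 CPM on control medium (−2.14 ± 0.25, edgeR adjusted p = 5.48e-05; interaction −1.94 ± 0.34, edgeR adjusted p = 0.00334). SAUR genes lie in tandem with close copies, so reads may be shared. GH3.3, which conjugates auxin to amino acids, moved the other way, with 23.3, 23.5 and 23.5 CPM on methyl viologen and 3.41, 4.15 and 6.66 CPM on control medium (2.31 ± 0.30, edgeR adjusted p = 0.000118). Of 20 light growth, brassinosteroid and gibberellin genes 9 fell and 2 rose, HFR1 among the falls (−1.36 ± 0.22, edgeR adjusted p = 0.000486).

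Of 18 aquaporins 12 fell (median −0.77). DELTA-TIP, a water channel of the vacuole, held 215, 195 and 153 CPM on methyl viologen and 685, 725 and 689 CPM on control medium (−1.90 ± 0.14, edgeR adjusted p = 2.62e-06; interaction −0.99 ± 0.19, edgeR adjusted p = 0.00528). PIP1;5, of the plasma membrane, held 89.1, 78.9 and 71.4 CPM on methyl viologen and 200, 214 and 149 CPM on control medium (−1.23 ± 0.15, edgeR adjusted p = 6.19e-05). Both had groups far apart. Among 21 expansins and xyloglucan enzymes, which loosen and remodel walls, 4 rose and 6 fell, against 21.8% and 21.2% of all genes. EXPA16 held 6.65, 6.37 and 6.96 CPM on methyl viologen and 1.31, 0.911 and 2.07 CPM on control medium (2.22 ± 0.26, edgeR adjusted p = 4.63e-05). XTH6 held 37.6, 34.6 and 29.3 CPM on methyl viologen and 134, 149 and 92.2 CPM on control medium (−1.89 ± 0.19, edgeR adjusted p = 2.13e-05).

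The iron deficiency list of 29 genes had 16 higher and 1 lower in med8, with a median of 0.60, against a median of 1.68 in Col-0, with 5 responses more positive and 14 more negative than in Col-0. CYP82C4 (AT4G31940), which hydroxylates the coumarin fraxetin, held 243, 201 and 203 CPM on methyl viologen and 20.7, 42.6 and 8.19 CPM on control medium (3.17 ± 0.43, edgeR adjusted p = 0.000166; interaction 2.48 ± 0.58, edgeR adjusted p = 0.0158). AT3G12900, a dioxygenase gene, held 78.4, 58.4 and 55.2 CPM on methyl viologen and 9.7, 13.1 and 3.03 CPM on control medium (2.89 ± 0.39, edgeR adjusted p = 0.000156; interaction 2.26 ± 0.53, edgeR adjusted p = 0.0156). IRT1, the iron transporter of the root surface, held 246, 230 and 227 CPM on methyl viologen and 49, 86.5 and 19.7 CPM on control medium (2.18 ± 0.39, edgeR adjusted p = 0.000944). In all 3 the lowest library was med8 control replicate 3, which also held the least root marker RNA. Regulators of iron shortage of the Ib group of bHLH factors went both ways in med8. BHLH101 held 10, 12.2 and 10.4 CPM on methyl viologen and 19.8, 18.4 and 17.7 CPM on control medium (−0.78 ± 0.15, edgeR adjusted p = 0.00142; interaction −4.37 ± 0.22, edgeR adjusted p = 1.54e-06). BHLH39 held 34.6, 41.9 and 33.9 CPM on methyl viologen and 24.4, 17.9 and 23.1 CPM on control medium (0.76 ± 0.23, edgeR adjusted p = 0.021), and in Col-0 the rise was larger by 3.71 log2 (interaction −3.71 ± 0.34, edgeR adjusted p = 6.51e-05). The BHLH39 rise missed the threshold without methyl viologen replicate 2 (0.65), med8 control replicate 2 (0.63) or med8 control replicate 3 (0.79). CGLD27, a plastid protein gene, held 60.7, 71.5 and 63.6 CPM on methyl viologen and 87.6, 82.1 and 87.2 CPM on control medium (−0.39 ± 0.11, edgeR adjusted p = 0.0162), against a rise of 2.67 in Col-0 (interaction −3.06 ± 0.16, edgeR adjusted p = 1.9e-06). The CGLD27 fall missed the threshold without methyl viologen replicate 1 (−0.34) or 3 (−0.37).

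Iron storage and iron-sulfur genes had 3 higher and 3 lower of 9 in med8 (1 lower without methyl viologen replicate 2 or med8 control replicate 3). Their median was 0.25 in med8, against a median of −1.85 in Col-0, and 7 responses were more positive in med8. VTL1, a vacuolar iron transporter-like gene, held 3.53, 3.58 and 4.36 CPM on methyl viologen and 1.76, 1.72 and 0.819 CPM on control medium (1.41 ± 0.29, edgeR adjusted p = 0.00226; interaction 3.26 ± 0.43, edgeR adjusted p = 0.000549). FER1, a ferritin gene, held 89.8, 66.6 and 87.7 CPM on methyl viologen and 37.5, 49.9 and 34.1 CPM on control medium (1.01 ± 0.30, edgeR adjusted p = 0.0196; interaction 3.66 ± 0.44, edgeR adjusted p = 0.000345). The FER1 rise missed the threshold without methyl viologen replicate 1 (0.93) or 3 (0.95) and without med8 control replicate 1 (0.95) or 3 (0.88). Copper deficiency genes had 5 higher and 3 lower of 14 (5 lower without med8 control replicate 3), with COPT2, a copper transporter, at 0.84 ± 0.18 (edgeR adjusted p = 0.00328) and COPT1 at −0.72 ± 0.11 (edgeR adjusted p = 0.000262).

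Circadian clock genes responded differently in the 2 genotypes. Of 11 morning genes 3 rose and 5 fell (median −0.23), against a median of 1.06 in Col-0, and 9 responses were more negative in med8. LHY held 18.8, 18.4 and 12.8 CPM on methyl viologen and 4.27, 4.12 and 5.13 CPM on control medium (1.89 ± 0.18, edgeR adjusted p = 1.15e-05), RVE8 rose by 1.14 ± 0.15 (edgeR adjusted p = 0.000134), and RVE7 held 10.4, 10.1 and 10.6 CPM on methyl viologen and 24.8, 29.2 and 24 CPM on control medium (−1.33 ± 0.09, edgeR adjusted p = 1.79e-06; interaction −1.27 ± 0.13, edgeR adjusted p = 8.04e-05). RVE1, a morning factor that promotes auxin synthesis, held 5.2, 3.52 and 3.49 CPM on methyl viologen and 6.85, 6.35 and 9.37 CPM on control medium (−0.89 ± 0.21, edgeR adjusted p = 0.00522), whereas it rose by 2.26 in Col-0 (interaction −3.14 ± 0.29, edgeR adjusted p = 6.46e-05). Of 12 day and evening genes 2 rose and 3 fell (median −0.09), against a median of −0.75 in Col-0, and 10 responses were more positive in med8. PRR7 held 159, 158 and 160 CPM on methyl viologen and 279, 289 and 287 CPM on control medium (−0.84 ± 0.07, edgeR adjusted p = 6.37e-06). The hour of harvest was not given in the labels used here, and a difference in clock phase between groups cannot be told apart from one in level.

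DNA damage genes and inhibitors of the cell cycle rose in 7 of 14 (median 0.31). NAC044, a target of the damage regulator SOG1, held 10.5, 6.48 and 5.66 CPM on methyl viologen and 0.929, 0.911 and 1.39 CPM on control medium (2.81 ± 0.31, edgeR adjusted p = 3.67e-05), and GMI1, a repair gene, held 28.4, 25.2 and 23.6 CPM on methyl viologen and 6.09, 5.1 and 8.98 CPM on control medium (1.94 ± 0.18, edgeR adjusted p = 1.09e-05). Of 16 cell division genes 0 were called by edgeR or DESeq2 and 1 had an unadjusted p under 0.05 (edgeR), with values between −0.08 and 0.42; without med8 control replicate 3, 6 rose. Of 26 Mediator subunit genes 3 rose, by small amounts (1 without methyl viologen replicate 1 or med8 control replicate 1 or 2). SFR6 rose most (43.2, 42.6 and 41.2 CPM on methyl viologen and 32.4, 31.8 and 33.1 CPM on control medium; 0.39 ± 0.08, edgeR adjusted p = 0.00191).

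Across all genes 2885 (13.9%) responded differently in med8 and in Col-0 by the interaction test, 1296 more positively (6.25%) and 1589 more negatively (7.66%) in med8. Of these, 2252 also changed in med8 itself: 875 rose there and had a more positive response than in Col-0, 1257 fell and had a more negative one, 78 fell with a more positive one and 42 rose with a more negative one. Both tests contain the med8 response, so matching directions are partly built in. Interactions were ranked among genes with a symbol that were called in both tests and averaged 10 CPM or more in their highest group. There the largest negative ones outside the iron and clock lists were CGA1, a GATA factor of greening (−2.96 ± 0.28, edgeR adjusted p = 6.9e-05), and BETA-OHASE 1, a carotene hydroxylase gene (−2.81 ± 0.23, edgeR adjusted p = 3.33e-05). CGA1 held 1.24, 1.23 and 0.939 CPM on methyl viologen and 2.1, 1.82 and 2.67 CPM on control medium in med8. Without methyl viologen replicate 2 of med8 the counts of more positive and more negative responses were 836 and 1038, and without Col-0 methyl viologen replicate 1 they were 827 and 1085.

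**Figure D5:**
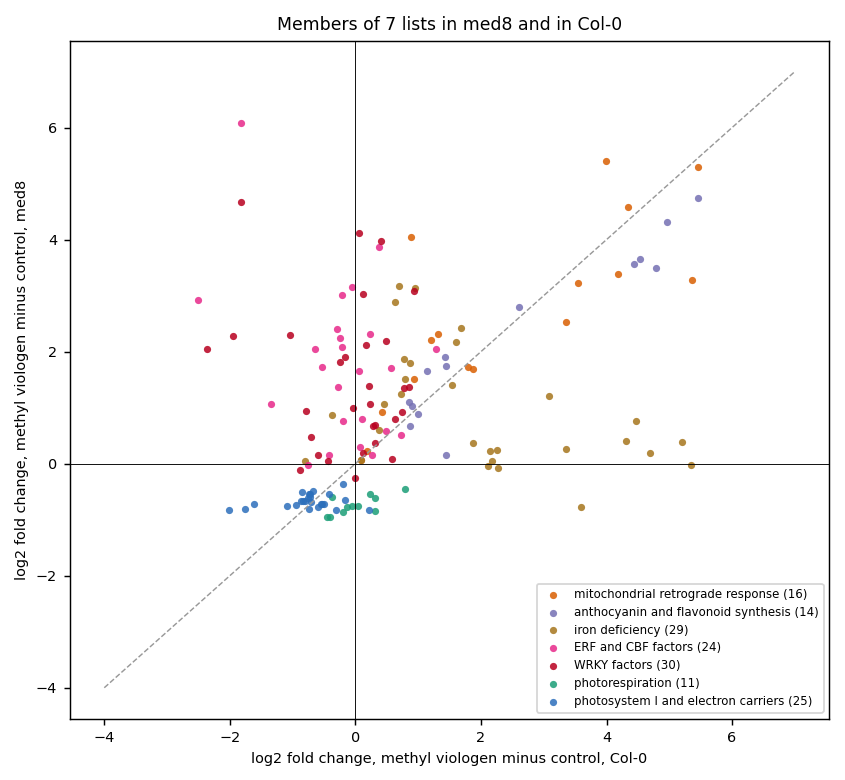
Log2 fold change, methyl viologen minus control, in med8 (y axis) against Col-0 (x axis) for the members of 7 lists, coloured by list with the number of members; the dashed line marks equal values. Retrograde and anthocyanin genes lie high on both axes, WRKY and ERF genes lie high on the med8 axis and around 0 on the Col-0 axis, part of the iron genes lie far to the right near 0 on the med8 axis, and photorespiration genes lie below the line.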

How the data were processed

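RNA of whole seedlings was sequenced as stranded mRNA libraries, per the labels. Per the submitters' processing notes, reads were handled with Trim Galore 0.3.3, TopHat2 2.1.0 and featureCounts (Subread 1.4.6) on TAIR10; the strand setting of the counting is not given in the sources used here. The deposited values are the authors' whole-number counts per locus, without normalization. edgeR 4.0.16 (R 4.3.3) scaled them by TMM, kept 20741 of 21543 loci by filterByExpr (minimum count 10; 802 removed) and tested 12 libraries with 1 mean per group by the quasi-likelihood F test. P-values were adjusted over all loci by the Benjamini-Hochberg method. The interaction is the med8 response minus the Col-0 response. CPM use TMM library sizes, and the fit was checked on simulated counts.

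Libraries held 30.47 to 34.69 M counts, and the biological coefficient of variation, fitted in common, was 12.7%. The labels do not say whether replicates came from separate cultures, and p-values then reflect only how these libraries vary. Alternatives were other scalings and filters, a replicate block, DESeq2 1.42.0, the 6 med8 libraries alone, and 1 library left out in turn. In another, Col-0 control replicate 1 and med8 control replicate 3 were left out together.

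Gene lists came from general knowledge, and members whose RefSeq entry gives another symbol were dropped. Members and lists were chosen with earlier results of these data known. Named genes are 15 rises and 15 falls, ranked by size. These were called loci that have a RefSeq symbol, average 10 CPM or more in their higher group and show separate libraries. Then came up to 4 called members per list, the 10 most abundant called genes, MED8 and the 5 oxidative hallmark genes. The 6 largest interactions each way came from genes with a symbol, called in both tests, with at least 10 CPM in their highest group. NAC017, PR1 and AT5G51440 were added with their values known. Loci without a RefSeq symbol keep their identifier.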

Additional observations from a re-analysis of the deposited data

Results flagged for a closer look

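Of the 117 genes named, 64 responded to methyl viologen differently in med8 and in Col-0 by the interaction test (edgeR, adjusted p under 0.05), where the background over all genes is 13.9%. The genes were partly named for their size and partly for a large called interaction, so the 2 shares are not a comparison. Values are the med8 response minus the Col-0 response, in log2.

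Among defence and stress-signalling genes with a more positive response in med8, the difference was 8.01 for NAC090, 7.81 for ZAT7, 7.59 for PR1, 6.48 for WRKY46, 6.24 for LURP1, 5.71 for CML37, 5.56 for PCC1, 5.06 for CRK36, 4.82 for PBS3 and 4.06 for WRKY40. It was 3.47 for ERF11, 3.21 for ERF105 and for BAP1, 2.99 for ZAT10, 2.96 for NIMIN-2, 2.17 for LYK5, 1.86 for ZAT6, 1.44 for HSFA4A, 0.78 for RBOHD and 0.71 for BZIP60. Hormone and cold genes differed by 3.34 (CYP707A3), 2.62 (COR15B), 2.59 (LOX4), 1.91 (ACS6) and 1.30 (CYP707A1). Transport, mitochondrial and metal genes differed by 5.20 (NRT2.1), 3.84 (DIC2), 3.66 (FER1), 3.26 (VTL1), 3.16 (OM66), 2.48 (CYP82C4), 2.26 (AT3G12900), 2.05 (ICL), 1.84 (MGDC) and 1.27 (ABCC3).

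Responses more negative in med8 included the iron genes BHLH101 (−4.37), BHLH39 (−3.71) and CGLD27 (−3.06), and COPT1 (−0.66), a copper transporter gene. Clock genes differed by −3.14 (RVE1), −1.40 (RVE8), −1.27 (RVE7), −0.90 (LHY) and −0.62 (PRR7). Plastid and photorespiration genes differed by −2.96 (CGA1), −2.81 (BETA-OHASE 1), −1.17 (GGT1), −0.97 (GPX1), −0.87 (GUN4), −0.68 (PGLP1), −0.63 (PRK) and −0.46 (RCCR). Carbon, nitrogen and growth genes differed by −2.37 (BXL1), −2.07 (BT2), −1.94 (DIN10 and SAUR63), −1.75 (ASN2), −1.56 (SAUR20), −1.33 (MYBL2), −1.04 (BGAL1), −0.99 (DELTA-TIP) and −0.88 (TPS11). GMI1 (−0.89) and AT2G21640 (−0.83) also differed.

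In 9 of these genes the difference missed the threshold in some fits without 1 library. For NAC090 (5.45) and ICL (1.64) this library was Col-0 control replicate 2, which also held the highest Col-0 levels of PBS3 and LURP1. The other 7 were PR1, LHY, GMI1, ABCC3, RBOHD, BZIP60 and AT2G21640, and each missed it in at least 4 of the 12 such fits.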

How the results depend on the processing

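Over all genes, all lists together and the named genes, 133 of 136 counts under the alternatives stayed within 1.5 times the value given. Counts of single lists are not among these. The other 3 were interactions: 836 higher and 1038 lower without med8 methyl viologen replicate 2, and 827 higher without Col-0 methyl viologen replicate 1. With 1 library left out in turn, genes called in med8 ranged from 3535 to 4936 higher and 3557 to 4912 lower, those at least 2-fold from 1418 to 1573 and 508 to 838, list members from 336 to 370 and 212 to 264, and interactions from 827 to 1479 and 1038 to 1882; the cause was not tested. Same-numbered libraries of the 2 media correlated at −0.084, 0.146 and 0.062 in med8 and at 0.35, 0.084 and −0.04 in Col-0. So few values cannot settle whether the replicate numbers pair the libraries. With the replicate block 4487 genes were higher and 4195 lower. DESeq2 called 4330 and 4852. For genes not called, leaving out 1 library gave −0.11 to 0.08 for MED8, −0.02 to 0.10 for NAC017 and −0.01 to 0.47 for TI1. Of 1636 values for the med8 response of named genes, 8 changed sign, all of genes not called: MED8 at 0.01 with upper-quartile scaling, 0.07 without methyl viologen replicate 3, and 0.08 both without med8 control replicate 3 and with 2 libraries left out, and NAC017 (−0.02) and TI1 (−0.01) under those last alternatives. Genes with few control reads, such as ZAT7 and NUDT24, have sizes limited by depth.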
